A study of Saccharomyces cerevisiae with 48 samples.

Results

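Origin deletion on chromosome III was followed through meiotic S phase in wild-type budding yeast (Saccharomyces cerevisiae) by comparing a culture called wild type ars∆ with a culture called wild type ARS+. The members are the 14 samples of these 2 cultures that have values, taken at 1, 1.5, 2, 2.5, 3, 3.5 and 4 hr and matched by time, out of 48 samples in the series and 42 with values. They were chosen by their labels and not by their values. The ars∆ strain carries a chromosome III from which active origins of the left arm are known to have been removed, while the ARS+ strain keeps them. The labels do not list which origins are missing. Both cultures are otherwise labelled wild type and were synchronized and sporulated alike, in 2% potassium acetate at 30 °C. Total genomic DNA was sequenced at each time. Each side is 1 culture, so the 7 times are not replicates, no test was possible, and an effect of the deletion cannot be told apart from any other difference between these 2 cultures. The other 15 chromosomes, whose origins are not labelled as altered, served as the measure of how far the cultures differed without the deletion.

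Replication of a yeast chromosome starts at short sequence elements called ARS (autonomously replicating sequences), where the origin recognition complex binds and the replicative helicase is loaded before S phase. Forks leave a fired origin in both directions, so DNA near an early origin doubles early, and a stretch without an origin is copied only when a fork arrives from outside. On chromosome III, ARS305, ARS306 and ARS307 on the left arm are active early origins of mitotic cells, ARS309, ARS310 and ARS315 lie on the right arm, and ARS301, ARS302 and ARS303 near the silent mating-type locus at the left end are seldom used in the chromosome. Premeiotic S phase uses largely the same origins as mitotic S phase and precedes the formation of recombination-initiating breaks.

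The measurement is relative copy number. The authors deposited a ratio for each of 4568 positions spaced 2.5 kb apart, of which 118 lie on chromosome III, from 2500 to 305000 (sacCer2). Each ratio was divided by the median ratio of its sample and put on the log2 scale, so that 0 is the copy number of the median position and a higher value means more copies, as in DNA copied sooner than most of the genome. Differences are ars∆ minus ARS+ throughout, and a negative one means fewer copies in ars∆. The ratios of the 14 samples run from 0.619 to 1.42. Read counts are not part of these tables, which leaves the depth of every sample unknown. In bulk DNA, fewer cells that had copied a region and a later copying in every cell cannot be told apart. What the ratios were divided by is not recorded. The main differences between the cultures are therefore also given as the change from 1 hr within the same culture. In that change a denominator shared by the culture's samples cancels. Ranks inside a culture and the slopes of each culture along the chromosome are given by level only.

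From 2.5 hr on, the left arm of chromosome III had fewer copies relative to the genome in ars∆ than in ARS+. Over the left region, the first 100 kb of the chromosome with 36 positions, the 2 cultures were alike up to 2 hr and then parted. The ars∆ culture stood at 0.039, 0.025, 0.097, -0.007, -0.11, -0.15 and -0.12 at the 7 times from 1 to 4 hr. The ARS+ culture stood at 0.019, 0.009, 0.069, 0.065, 0.069, 0.11 and 0.075 at the same times. Both were above the median of the genome until 2 hr. From 2.5 hr ars∆ was below it, while ARS+ stayed above it at every time.

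**Figure D1:**
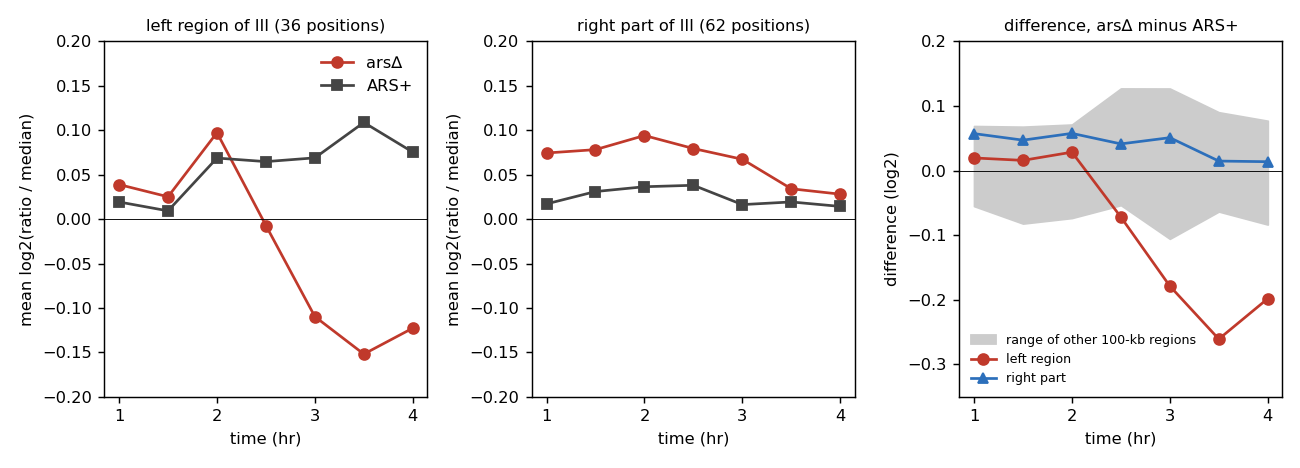
Mean relative copy number (log2 of ratio over sample median, y axis) against time in hr (x axis) in wild-type ars∆ (red) and ARS+ (grey), for the left region (first 100 kb) and the right part (past 150 kb) of chromosome III, with the difference between the cultures in the last panel. The grey band is the range of the same difference over 108 other 100-kb regions; the left region leaves it from 2.5 hr and reaches -0.26 at 3.5 hr.

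The difference in the left region was 0.020 at 1 hr, 0.016 at 1.5 hr and 0.029 at 2 hr. It was -0.072 at 2.5 hr, -0.18 at 3 hr, -0.26 at 3.5 hr and -0.20 at 4 hr. Among 108 whole 100-kb regions of the other chromosomes, 88 had a difference as low as or lower than that of the left region at 2 hr, and none did at 2.5, 3, 3.5 or 4 hr. Those regions had a mean near 0 with an SD of 0.026 at 3.5 hr, when the lowest was at -0.063. The spread between the cultures was widest at 3 hr, with an SD of 0.050 and a lowest region at -0.11.

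Position by position the same turn was seen. Of the 36 positions of the left region, 13, 16 and 14 were lower in ars∆ at 1, 1.5 and 2 hr. At 2.5, 3, 3.5 and 4 hr the counts were 30, 34, 35 and 35. On the other 15 chromosomes the share of positions lower in ars∆ stayed between 47.9% and 50.7% at all 7 times, which division by the median largely fixes.

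With the value at 1 hr subtracted, the left region differed by -0.004 at 1.5 hr and 0.009 at 2 hr. It then differed by -0.092 at 2.5 hr, -0.20 at 3 hr, -0.28 at 3.5 hr and -0.22 at 4 hr. At 3.5 hr ars∆ had changed from its own 1 hr value by -0.19, and ARS+ by 0.089. Averaged over 3, 3.5 and 4 hr, the change from 1 hr was -0.17 in ars∆ and 0.065 in ARS+. The difference between these changes, -0.23, is a copy number ratio of 0.851. The lowest of the 108 other regions was at -0.085, and their SD was 0.029.

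The difference arose mostly between 2 and 3.5 hr. From 2 to 2.5 hr the left region changed by -0.10 in ars∆ and -0.004 in ARS+. From 2.5 to 3 hr it changed by -0.10 in ars∆ and 0.004 in ARS+. In each of these intervals none of the other 108 regions had a difference in step as low as that of the left region, which was -0.10 and -0.11. From 3 to 3.5 hr the step was -0.042 in ars∆ and 0.040 in ARS+, a difference of -0.082, and 4 other regions were as low. From 3.5 to 4 hr the difference turned back by 0.063, with ars∆ up by 0.029 and ARS+ changed by -0.033. The left region of ars∆ was still below the median of the genome, at -0.12, in the last sample at 4 hr.

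Ranking regions inside a single sample does not involve the other culture. In ars∆, 106 of the 108 other regions were lower than the left region at 2 hr, 50 at 2.5 hr and 5 at 3 hr. At 3.5 and 4 hr none was lower, so the left region was then below each of the 108 regions of that culture. At 3.5 hr it stood at -0.15 in ars∆, where the lowest other region was at -0.14. In ARS+ the left region was among the highest parts of the genome from 2 hr on, with 105 or 106 of the 108 other regions lower at 2, 2.5, 3, 3.5 and 4 hr. At 1 hr it already ranked high in both cultures, with 103 other regions lower in ars∆ and 100 in ARS+.

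In windows of 10 kb and with 1 hr subtracted, the whole left region except its outermost window was lower in ars∆. A window was called lower or higher where the difference reached 0.15 in size, a copy number ratio of 1.11. In the mean of 3 to 4 hr minus 1 hr, 9 of the 10 windows of the left region were lower, against 1.22% of the 1143 windows on the other chromosomes (14 windows). Chromosome III held 11 lower windows of 31 in all, the other 2 being at 110 to 120 kb and 120 to 130 kb. No window of chromosome III was higher, against 0.7% of the other windows (8 windows). The median over the 10 windows of the left region was -0.23, over all 31 windows of chromosome III -0.071, and over the other chromosomes 0.0044.

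**Figure D2:**
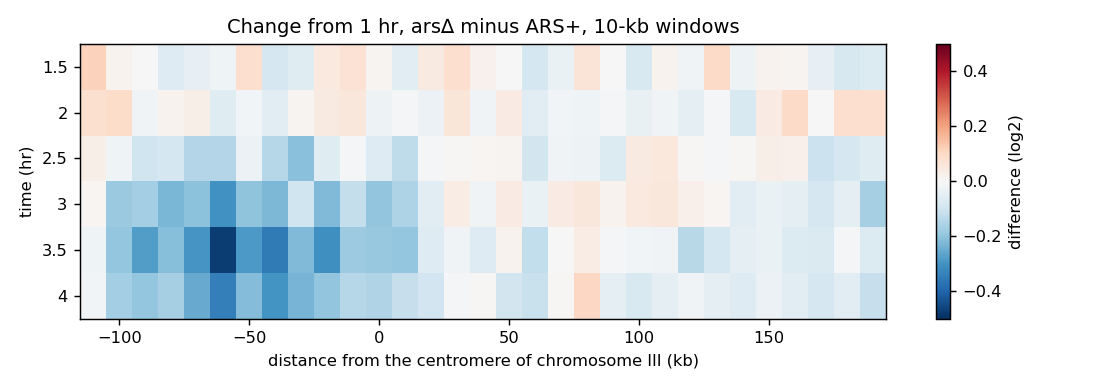
Change from 1 hr in ars∆ minus the same change in ARS+ (log2, colour scale) for each 10-kb window of chromosome III (x axis, distance from the centromere in kb) at 6 times (y axis, hr). Blue marks windows lower in ars∆; the blue block on the left arm appears at 2.5 hr, is darkest at 3.5 hr and ends beyond the centromere.

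The largest difference in the change from 1 hr lay between the places of ARS305 and ARS306. The window at 50 to 60 kb had changed by -0.25 in ars∆ and 0.12 in ARS+ from 1 hr to the mean of 3 to 4 hr, a difference of -0.37 and the lowest of all 1174 windows. The window at 70 to 80 kb, which holds the place of ARS306, had changed by -0.29 in ars∆ and 0.0054 in ARS+, a difference of -0.29 and the second lowest. At 40 to 50 kb the difference was -0.25, at 90 to 100 kb -0.24 and at 60 to 70 kb -0.24. The window at 30 to 40 kb, which holds the place of ARS305, differed by -0.20, and those at 20 to 30 kb and 10 to 20 kb by -0.21 and -0.18. Of the 10 lowest windows in the genome, 6 lay in the left region.

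The outermost 10 kb did not follow the rest of the arm. With its 2 listed positions it had changed by -0.0052 in ars∆ and 0.0043 in ARS+, a difference of -0.0095. This end was low in both cultures over 3 to 4 hr, at -0.12 in ars∆ and -0.048 in ARS+. It was already low at 1 hr, at -0.11 in ars∆ and -0.052 in ARS+. The difference there was -0.059 at 1 hr, 0.056 at 1.5 hr, -0.083 at 3.5 hr and -0.073 at 4 hr. Its change thus depends on the baseline and rests on 2 positions. Next to it, at 10 to 20 kb, ars∆ was at -0.00088 and ARS+ at 0.10.

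Toward and past the centromere the difference became smaller, though not evenly. It was -0.24 at 90 to 100 kb, -0.15 at 100 to 110 kb, -0.18 at 110 to 120 kb, which holds the centromere, and -0.15 at 120 to 130 kb. At 130 to 140 kb it was -0.071 and at 140 to 150 kb 0.0045. A straight line through the 37 positions from 50 to 150 kb gave a slope of 0.033 per 10 kb for the difference in change, leaving out the position at 85000 described below. Over the same stretch the level of 3 to 4 hr rose toward the right by 0.031 per 10 kb in ars∆ and changed by -0.0026 per 10 kb in ARS+. Between 10 and 60 kb, with 20 positions, the level of ars∆ changed by -0.030 per 10 kb toward the right and that of ARS+ by 0.0004. The lines fitted to ars∆ thus sloped down from both sides, where the slopes of ARS+ were close to 0. Both stretches include 50 to 60 kb. The left flank was uneven, with ars∆ window levels of -0.00088, -0.072, -0.093, -0.036 and -0.17 from 10 to 60 kb.

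By level, and with 85000 left out, the trough of ars∆ lay at 62500. That position was at -0.26, -0.37 and -0.28 in ars∆ at 3, 3.5 and 4 hr, against 0.034, 0.11 and 0.077 in ARS+. It was at -0.079 in ars∆ and 0.025 in ARS+ at 1 hr already. Leaving out 85000, it was the lowest position of the left region in ars∆ at each of 2, 2.5, 3, 3.5 and 4 hr. A run of 51 neighbouring positions without a break, from 12500 to 142500, was lower in ars∆ in the mean of 3 to 4 hr minus 1 hr. The run is counted over listed positions and spans the gap between 85000 and 92500. The longest such run on any other chromosome held 23 positions, on XIV. At 3 hr alone it held 35 positions, on IV, against 51 on chromosome III. At 2.5 hr the longest run on chromosome III was 20 positions, from 15000 to 62500, against 19 on chromosome X.

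**Figure D3:**
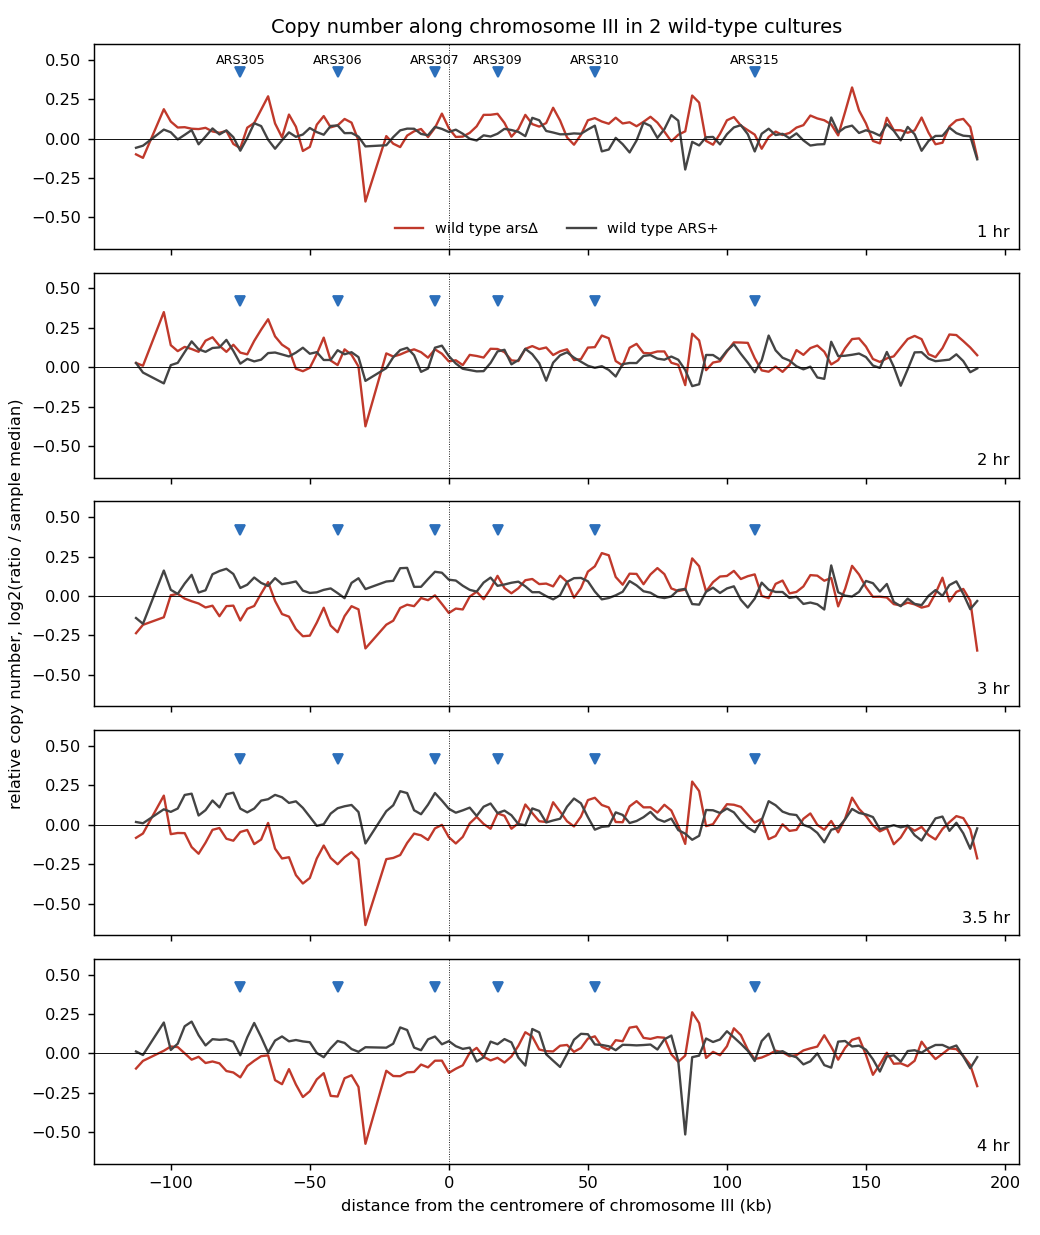
Relative copy number (log2 of ratio over sample median, y axis) along chromosome III (x axis, distance from the centromere in kb) in wild-type ars∆ (red) and ARS+ (grey) at 1, 2, 3, 3.5 and 4 hr. Triangles mark the listed positions nearest to 6 origins; at 1 and 2 hr the left region differs by 0.020 and 0.029 on average and the right part by 0.057 and 0.058. From 3 hr ars∆ lies below ARS+ at 34, 35 and 35 of the 36 positions of the left region at 3, 3.5 and 4 hr; the dotted line marks the centromere.

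At single origins the listed position nearest to the rounded place of each was used. At ARS306 (75000) ars∆ stood at 0.084, -0.017, 0.014, -0.074, -0.23, -0.25 and -0.27 from 1 to 4 hr, against 0.083, 0.058, 0.11, 0.10, 0.018, 0.10 and 0.079 in ARS+. The cultures were equal there at 1 hr, and ars∆ was lower at each later time. At ARS305 (40000) ars∆ stood at -0.061, -0.11, 0.093, -0.047, -0.16, -0.046 and -0.15, against -0.077, -0.0073, 0.023, 0.010, 0.051, 0.10 and -0.011 in ARS+. Here ars∆ was lower at 1.5 hr, higher at 2 hr and lower from 2.5 hr. At ARS307 (110000), close to the centromere, ars∆ stood at 0.068, 0.098, 0.11, 0.15, 0.004, -0.023 and -0.046, against 0.074, 0.065, 0.12, 0.14, 0.15, 0.20 and 0.11 in ARS+. The cultures ran together there until 2.5 hr, when ars∆ was already lower at ARS306, and parted at 3 hr. One position has an SD between cultures of 0.089 to 0.10 on the other chromosomes, so differences of about that size at a single position are not set apart from the background.

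At ARS309 (132500), the first listed origin of the right arm, the difference in the change from 1 hr to the mean of 3 to 4 hr was -0.13. The levels of 3 to 4 hr there were 0.058 in ars∆ and 0.066 in ARS+, and those of 1 hr 0.16 in ars∆ and 0.031 in ARS+. At ARS310 (167500) ars∆ had changed by 0.027 and ARS+ by -0.064, a difference of 0.090. At ARS315 (225000) the difference was -0.031. Averaged over 3 to 4 hr, ars∆ was above the median at these 3 positions, with 0.058 at ARS309, 0.16 at ARS310 and 0.039 at ARS315. At 4 hr alone it was at -0.027 at ARS309 and -0.035 at ARS315.

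On the right arm, the stretch past 150 kb with 62 positions did not go below the median. It stood at 0.074, 0.078, 0.094, 0.079, 0.067, 0.034 and 0.028 in ars∆ from 1 to 4 hr. In ARS+ it stood at 0.017, 0.031, 0.036, 0.038, 0.016, 0.019 and 0.014. It was higher in ars∆ at each time, already so at 1 hr, by 0.057, and by 0.014 at 4 hr. Of the 108 other regions, 106 had a difference as low or lower at 1 hr and 71 at 4 hr, so the 1 hr value subtracted here was itself high. In the mean of 3 to 4 hr minus 1 hr the difference was -0.031, and 11 of the 108 other regions were as low or lower. At 3.5 and 4 hr the difference in change was -0.042 and -0.043, and 8 and 6 other regions were as low. None of its 16 windows was called lower, with values between -0.12 and 0.065 and 14 below 0. The stretch between both, from 100 to 150 kb with 20 positions, differed by -0.094 at 3.5 hr and by -0.063 at 3 hr. At 3.5 hr the lowest of the 108 other regions was at -0.063, and at 3 hr 11 were as low or lower. Those regions span 100 kb each, longer than this stretch and shorter than the part past 150 kb. The ranks of both stretches are thus not matched for length, and how means over stretches of equal length spread was not tested.

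Without subtraction of 1 hr, 8 of the 11 lower windows of chromosome III were still called. The windows at 10 to 20 kb (-0.10), 40 to 50 kb (-0.14) and 120 to 130 kb (-0.055) were not. At 1 and 2 hr, 1 window of the left region was lower by at least 0.15, against 0.612% and 1.31% of the windows on the other chromosomes. At 2 hr 1 other, at 10 to 20 kb, was higher (0.17), against 1.92% of the windows elsewhere. At 3 hr 6 of 10 were lower, against 2.62%, at 3.5 hr 8 of 10, against 1.4%, and at 4 hr 7 of 10, against 1.49%. In the mean of 3 to 4 hr 7 of 10 were lower, against 0.787%, and on the rest of chromosome III 1 more window, at 110 to 120 kb. Among windows ranked inside ars∆ alone, 6 of the 10 lay in the lowest 10% of the genome over 3 to 4 hr. They include the window at 0 to 10 kb, low in both cultures, and that at 80 to 90 kb, already low at 1 hr. In ARS+ 6 of the 10 lay in the highest 10%.

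The single window of the left region that was low at 1 and 2 hr was that at 80 to 90 kb, and it owed this to 1 position. It has 2 listed positions, 82500 and 85000. The position at 85000 stood at -0.40, -0.54, -0.37, -0.43, -0.33, -0.64 and -0.57 in ars∆ from 1 to 4 hr, against -0.050, -0.10, -0.086, 0.22, 0.044, -0.12 and 0.040 in ARS+. It was thus low in ars∆ from the first sample on, and it lies beside a gap, since the next listed position is 92500. Over 3 to 4 hr the window had the largest difference of all by level, -0.37, but ranked 17th lowest once 1 hr was subtracted, at -0.18. Without this window the difference of the left region in the mean of 3 to 4 hr minus 1 hr was -0.23, as with it. On the right side of the chromosome the position at 200000 stood at -0.013 in ars∆ and -0.51 in ARS+ at 4 hr.

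Genome-wide the correlation between the 2 cultures was highest at 3.5 hr. Over the 1143 windows of the other chromosomes Pearson's r between ars∆ and ARS+ was 0.13 at 1 hr, 0.22 at 2 hr, 0.53 at 3 hr, 0.69 at 3.5 hr and 0.47 at 4 hr, as a description of windows that share both libraries. The SD of the difference over the same windows was 0.063 at 1 hr, 0.069 at 2 hr, 0.081 at 3 hr, 0.064 at 3.5 hr and 0.068 at 4 hr. The spread of levels over these windows differed in its course between the cultures. The SD over these windows was 0.051, 0.057, 0.096, 0.086 and 0.070 in ars∆ at 1, 2, 3, 3.5 and 4 hr. In ARS+ it was 0.045, 0.053, 0.054, 0.074 and 0.061 at the same times. This SD was highest at 3 hr in ars∆ and at 3.5 hr in ARS+. It includes noise, which was not separated from differences in the time of copying. Whether the cultures were in step was not tested. With ars∆ at 3 and 3.5 hr set against ARS+ at 3.5 and 4 hr, and 1 hr against 1.5 hr as the baseline, the left region differed by -0.25. As the residual from a straight line of ars∆ on ARS+ over the other chromosomes it differed by -0.23.

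**Figure D4:**
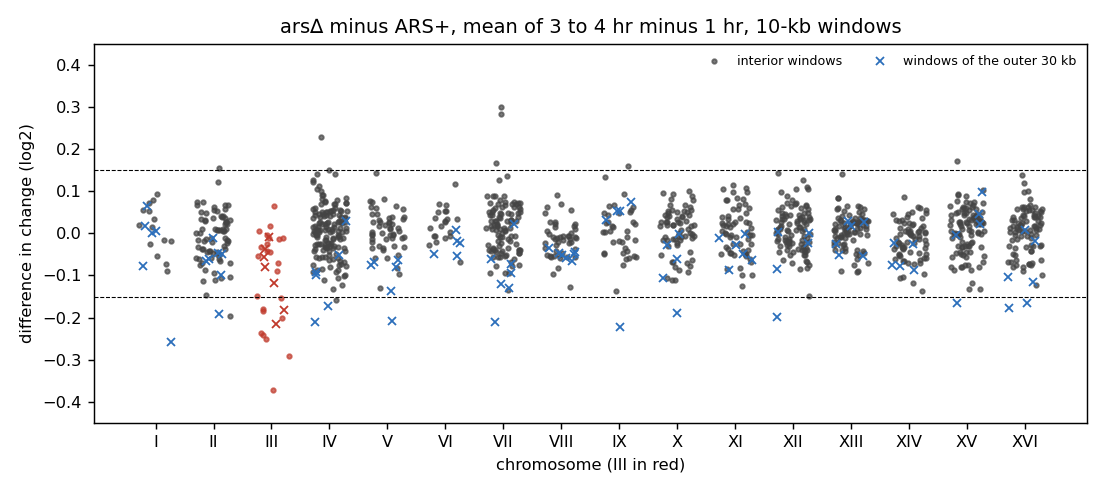
Difference between ars∆ and ARS+ in the mean of 3 to 4 hr minus 1 hr (log2, y axis) for every 10-kb window, by chromosome (x axis, chromosome III in red). Dots are interior windows, crosses are windows of the outer 30 kb, and dashed lines mark 0.15 in size; 11 windows of chromosome III lie under the lower line, while those of other chromosomes that do are mostly crosses.

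With 1 hr subtracted, chromosome III was the chromosome whose mean moved most. Its difference in the mean of 3 to 4 hr minus 1 hr was -0.11 over 118 positions, and those of the other 15 chromosomes lay between -0.018 and 0.014. At 1 hr the difference of chromosome III was 0.042. By level over 3 to 4 hr it was -0.064, a smaller size than the 0.075 of chromosome VI. Chromosome VI was higher in ars∆ at all times, by 0.062 at 1 hr, 0.11 at 3 hr and 0.055 at 4 hr, and by 0.014 in the change from 1 hr. The 14 lower windows elsewhere were spread over 10 chromosomes. Of these, 12 lay in the outer 30 kb of a chromosome, where 13.8% of 87 windows were lower, and 2 among 1056 interior windows, or 0.189%. The windows of chromosome ends had changed by -0.046 on average in ars∆ and 0.011 in ARS+. This background touches the left end of chromosome III, since the windows at 10 to 20 kb and 20 to 30 kb are among its outer windows. Of the 24 interior windows of chromosome III, 9 were lower.

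Most of the windows that differed most elsewhere had fewer than the full 4 listed positions. The lowest was at 10 to 20 kb of chromosome I, at -0.26 with 1 listed position, where ars∆ was at 0.13 and ARS+ at -0.12 at 1 hr. The next were at 430 to 440 kb of IX (-0.22, 1 position), 1060 to 1070 kb of VII (-0.21, 2 positions), 1520 to 1530 kb of IV (-0.21, 2 positions) and 0 to 10 kb of V (-0.21, 1 position). The highest were at 810 to 820 kb of VII (0.30, 1 position), 560 to 570 kb of VII (0.28, 1 position) and 1150 to 1160 kb of IV (0.23, 3 positions). They were followed by 970 to 980 kb of XV (0.17, 3 positions) and 650 to 660 kb of VII (0.17, 4 positions). Of the 14 lower windows elsewhere, 10 were among the 74 windows with fewer than the full 4 positions. The other 4 were among the 1069 windows with all 4. In the left region 8 of the 9 lower windows had all 4 positions. Its windows at 0 to 10 kb and 80 to 90 kb have 2 each, and its others have 4.

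Of 5 origins looked up on other chromosomes, 4 were above the median in both cultures over 3 to 4 hr. At ARS607 (200000 of chromosome VI) the level of 3 to 4 hr was 0.26 in ars∆ and 0.10 in ARS+, and the difference in change from 1 hr was 0.018. At ARS606 (167500 of VI) the levels were 0.25 in ars∆ and 0.16 in ARS+, with a difference in change of -0.041. ARS416 on chromosome IV (462500), the first yeast ARS to be isolated, was at 0.14 in ars∆ and 0.086 in ARS+, with a difference in change of 0.17. ARS603 (70000 of VI) was at 0.13 in ars∆ and 0.047 in ARS+, with a difference in change of 0.085. The late origin ARS522 on V (550000) was at -0.035 in ars∆ and 0.003 in ARS+. The differences in change at these 5 positions ran from -0.044 at ARS522 to 0.17 at ARS416, against -0.18 at ARS305, -0.32 at ARS306 and -0.17 at ARS307 on the left arm. The size at ARS416 is thus about that at ARS305 and ARS307, with the opposite sign.

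The left region was also lower in ars∆ than in ARS+ in the cultures of the other backgrounds. In the mean of 3 to 4 hr minus 1 hr, it differed by -0.12 in DDK OP and -0.20 in tof1∆. The wild-type value was -0.23. The lowest of the 108 other regions was at -0.072 in DDK OP, -0.044 in tof1∆ and -0.085 in wild type. By level over 3 to 4 hr it differed by -0.16 in DDK OP, -0.13 in tof1∆ and -0.21 in wild type. The order of DDK OP and tof1∆ thus depended on the measure. At 1 hr the left region stood at 0.086 in ars∆ and 0.12 in ARS+ in DDK OP. In tof1∆ it stood at 0.11 in ars∆ and 0.038 in ARS+, so the values subtracted differed in opposite directions. With 1 hr subtracted, the lowest window of the left region was at 80 to 90 kb in DDK OP (-0.26) and in tof1∆ (-0.30). In wild type it was at 50 to 60 kb (-0.37). The window at 80 to 90 kb has 2 listed positions, and 1 of them is 85000, already low in wild-type ars∆ at 1 hr. By level over 3 to 4 hr, the window at 80 to 90 kb had the lowest difference in wild type too, at -0.37. Whether the low point lay elsewhere in the other backgrounds was not tested. Each background has 1 pair of cultures, and the difference between backgrounds was not tested.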

How the data were processed

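Total DNA of synchronized meiotic cultures was sequenced. The submitters' processing notes name BWA and the build sacCer2, without a version of BWA. The authors deposited 1 table per culture with a ratio per position and time, and how reads were counted, smoothed and divided to make it was not stated. The 2 samples at 0 hr are not analysed here. Each ratio was divided by the sample median and put on the log2 scale, positions were averaged in 10-kb windows, and ars∆ was set against ARS+ at the same time, as a level and as the change from 1 hr (Python 3.11.15, pandas 2.3.3, numpy 2.4.6). With 1 culture a side there is no test. Regions were set beside 108 whole, non-overlapping 100-kb regions and 1143 windows of the other chromosomes, and windows were called at a difference of 0.15. The window code was tested on simulated data. The regions, threshold, origins and measures were chosen with earlier results of these data known. Windows elsewhere were named by rule, as the 5 largest decreases and 5 largest increases. Origins were placed by rounded position, since no annotation of sacCer2 was used, and no gene or sequence is given. The position at 85000 was singled out, and the outer 30 kb separated, after their values were seen. Alternatives covered the centre of each sample, windows, baseline, times, bounds, timing, amplitude and threshold.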

Additional observations from a re-analysis of the deposited data

Results flagged for a closer look

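The level of the right part of chromosome III differed between ars∆ and ARS+ in opposite directions in different backgrounds. In the mean of 3 to 4 hr, ars∆ minus ARS+ was 0.027 in wild type and 0.057 in tof1∆, and -0.017 in DDK OP. With 1 hr subtracted the signs were the other way round, at -0.031 in wild type, -0.0040 in tof1∆ and 0.013 in DDK OP. Each value is 1 pair of cultures, and the difference between the pairs was not tested. The SD of the difference in level over the 108 other regions was 0.028 in wild type, 0.025 in tof1∆ and 0.022 in DDK OP. Those regions are shorter than the right part, so their SD is not matched to it for length.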

How the results depend on the processing

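The left-region difference stayed negative under every alternative run. For 2.5 to 3.5 hr it moved by more than the SD over other regions, to -0.17 by level (main value -0.21) and -0.19 with 1 hr subtracted (main value -0.23). All other alternatives gave -0.19 to -0.23 and -0.21 to -0.25, and the right part, run with 1 hr subtracted, gave -0.0094 to -0.043. The count of 11 lower windows on chromosome III and 14 elsewhere became 20 and 42 in 5-kb windows, and 5 and 7 in 20-kb windows, which change the number of windows. At a threshold of 0.20 the counts were 7 and 5. At 0.10 the count elsewhere was 47, against 13 on III. The count elsewhere fell to 4 with all positions listed (10 on III), 5 with 1 and 1.5 hr as the baseline (11 on III), 7 as a residual from a straight line (11 on III) and 2 with the outer 30 kb left out (9 on III). The cause of these changes was not tested. The last of these, and scaling to equal SD (-0.21 and -0.23), were chosen after seeing the data. Depth is unknown, so no counting error can be given, and 1 culture a side leaves the spread between cultures of 1 genotype unmeasured.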
